A study of Arabidopsis thaliana with 36 samples.

Results

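This comparison concerns roots that grew in chloride, without nitrate in their own compartment, while the other main root of the same plant was in nitrate. The plants were Arabidopsis thaliana of the Columbia ecotype, whose primary root had been cut so that each carried a pair of main roots. They had been raised with 0.5 mM ammonium succinate, 0.1 mM KNO3 and 3 mM sucrose, and were moved at an age of 12 to 14 days to divided plates with a nitrogen-free basal medium and 0.3 mM sucrose. In the split group (Sp.KCl) the sampled side was in 5 mM KCl and the other side in 5 mM KNO3. In the uniform group (C.KCl) both sides were in 5 mM KCl. Samples were taken after 2 days, and the 3 Sp.KCl and 3 C.KCl arrays are 6 of the 36 in the series. The samples were chosen by their titles alone, and no measured value entered the choice. The nitrate side of the same split plates (Sp.NO3) and uniform nitrate plates (C.NO3), with 3 arrays each, and the chloride roots of the earlier times, 2 hours and 8 hours, are used for comparison.

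The labels contradict each other on which KCl samples were split. The titles and source names give the grouping used here. The treatment characteristics of the same samples give the opposite one for every KCl sample. The titles were followed, and if the characteristics are right, the sign of every difference between Sp.KCl and C.KCl below turns round, so that the 79 probe sets given as higher would be lower and the 59 given as lower would be higher. The size and p-value of these differences would stay as they are. The test between the chloride and nitrate sides would change in size too, and is given below with the groups exchanged.

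Nitrate serves roots both as a nutrient and as a signal. A root responds to the nitrate around it and also to the nitrogen status of the rest of the plant, which it senses through messages that travel by way of the shoot. Nitrogen-starved roots send CEP peptides to the shoot, which returns small glutaredoxin-like polypeptides that raise nitrate uptake on the supplied side, and cytokinins made on that side take part in the exchange. A root in chloride therefore has the same local surroundings on both kinds of plate, and the comparison asks what supply to the other side changes in it.

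Each array gave 1 signal for each of 22746 probe sets after 64 control probe sets were left out. Signals are on a linear scale on which the trimmed mean of each array is 500, and the median signal of the 36 arrays lay between 194 and 222. Correlations of log2 signals were 0.972 to 0.979 among the Sp.KCl arrays, 0.979 to 0.980 among the C.KCl arrays and 0.972 to 0.980 between them. The root hair expansins EXPA7 (1782, 1802 and 1335 in Sp.KCl, against 1734, 1464 and 1666 in C.KCl) and EXPA18 (1518, 1526 and 1291 in Sp.KCl, against 1648, 1496 and 1205 in C.KCl), which loosen the walls of growing root hairs, were measured in all 6 samples at overlapping levels. Of 30 probe sets matched to photosynthesis genes, which mark shoot tissue, 0 passed the test. Their median log2 difference was 0.16, against -0.011 for all probe sets, and their summed signal was 14915 to 16228 in Sp.KCl and 12655 to 15009.6 in C.KCl. In 6 of the 30 every Sp.KCl array was above every C.KCl array, against 7.05% of all probe sets, and in 0 below. Of 2 matched meristem and root cap markers 0 passed, and 1 was lower in Sp.KCl without overlap. Their summed signal was 572 to 753 in Sp.KCl and 792 to 864 in C.KCl. The summed signals of the matched xylem and phloem markers overlapped. In whole roots, fewer cells of a type and less RNA per cell cannot be told apart.

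The spiked poly-A control RNAs stood apart. These are 4 Bacillus transcripts, added to a sample and carried through labelling. Their mean log2 signal was 8.81 to 8.97 on the Sp.KCl arrays and 9.44 to 9.64 on the C.KCl arrays, a difference of -0.67 without overlap. It was 8.54 to 8.96 in Sp.NO3 and 8.97 to 9.24 in C.NO3. The hybridisation controls differed by 0.15 in log2 signal (10.6 in Sp.KCl, against 10.4 in C.KCl). The index of 3′ over 5′ signal, a measure of RNA quality, is a log2 ratio. It was 0.546 ± 0.0424 in Sp.KCl and 0.661 ± 0.141 in C.KCl (SD, n = 3 each). Scaling the arrays to the poly-A controls in place of the whole array moved the median difference of all probe sets to 0.54, so the differences below are relative to the bulk of the root RNA on each array. Under that scaling 1513 probe sets passed the test, 1509 of them higher and 4 lower, and 23 of the 59 lower ones below had a positive difference. With the poly-A level of each array as a covariate in the fit, 55 probe sets passed, 48 of them among the 138 called below. The part of the controls in the results was not tested further.

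At 2 days, supply of nitrate to the other side was accompanied by differences in 138 of 22746 probe sets (0.607%) in the root in chloride. Of these, 79 were higher (0.347%) and 59 lower (0.259%) in Sp.KCl, by limma with Benjamini-Hochberg adjustment at 0.05. The unadjusted p was under 0.05 for 2376. The differences ran from 0.36 to 2.79 on the log2 scale among the higher and from -0.39 to -2.09 among the lower, and 27 higher and 25 lower ones reached a log2 of 1. In all 138 the 3 and 3 arrays did not overlap, which was also true of 15.1% of all probe sets (7.05% with Sp.KCl higher and 8.06% with it lower). The annotation gives exactly 1 gene for 67 of the 138 (40 higher and 27 lower), several for 2 and none for 69. The largest differences in either direction belong to probe sets without a listed gene, and the genes below are from the 67. A fit to the 6 arrays alone called 30 probe sets, 24 of them among the 138. Leaving out 1 array gave 74, 49 and 257 calls without Sp.KCl replicates 1, 2 and 3, and 54 and 81 without C.KCl replicates 1 and 2. Of the 67 genes, 11 kept their call in all 6 such omissions.

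**Figure D1:**
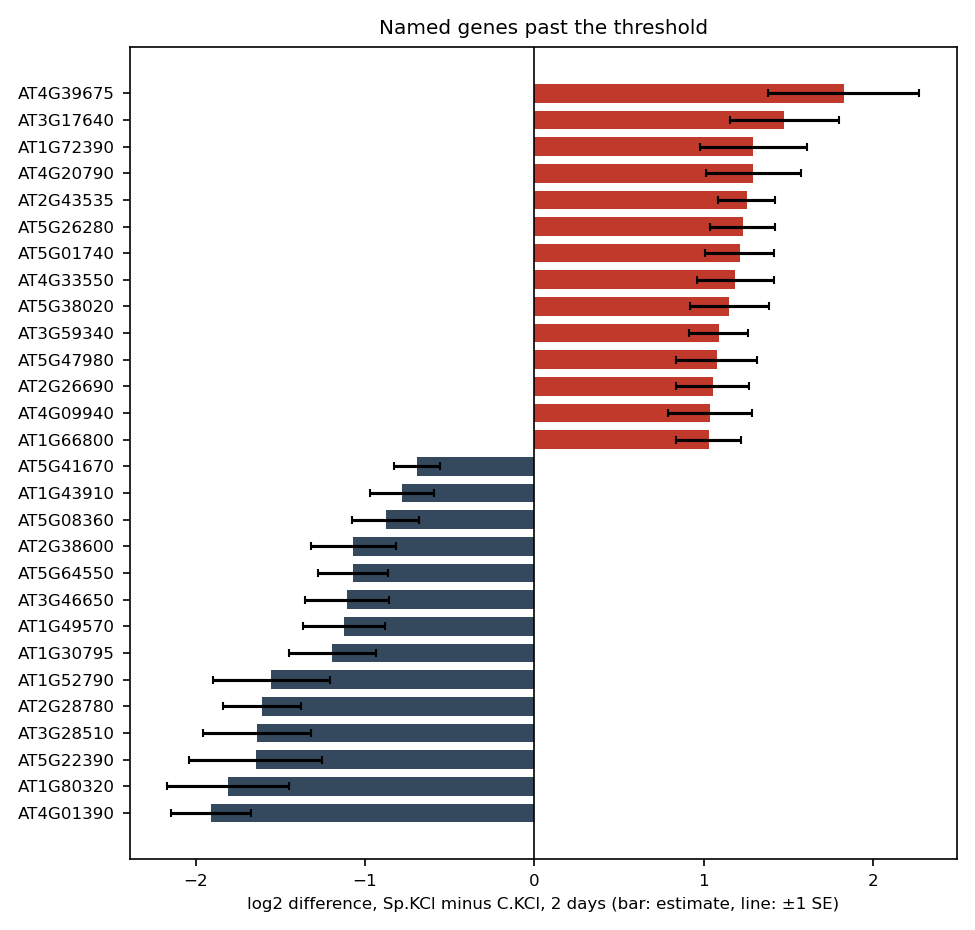
Log2 difference, Sp.KCl minus C.KCl at 2 days, of the 14 higher and 14 lower genes of largest difference, with bars for the estimate and lines for ±1 SE. The bars run from 1.83 for AT4G39675 down to -1.91 for AT4G01390.

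Of the genes that kept their call in every omission, 9 were higher in Sp.KCl and 2 lower. Of these, AT3G59340, MSRB5, AT5G26260, GSTU26 and AT3G20370 did not pass in a fit to the 6 arrays alone (adjusted p 0.0569 to 0.189). AT2G43535, a knottin-type defensin-like protein, had signals of 1581, 1919.7 and 1193 in Sp.KCl and 794, 544 and 589 in C.KCl, a log2 difference of 1.26 ± 0.17 (adjusted p = 9.49e-05), with all errors of differences given as SE. Every Sp.KCl array was above every C.KCl array. AT5G01740, of the NTF2-like family, had 301, 231 and 319 in Sp.KCl and 110.3, 104 and 123 in C.KCl (1.21 ± 0.20, adjusted p = 0.00228). MSRB5, a methionine sulfoxide reductase that repairs oxidised methionine in proteins, had 4717, 4793 and 3377 in Sp.KCl, against 2336, 2281 and 2392 in C.KCl (0.86 ± 0.11, adjusted p = 5.62e-05). The Sp.KCl array of replicate 3 was the lowest of its group for both AT2G43535 and MSRB5. GSTU26, a glutathione transferase of the tau class, which couples glutathione to reactive compounds, had 3162, 3445 and 2685 in Sp.KCl and 2450.0, 1899 and 1939 in C.KCl (0.56 ± 0.098, adjusted p = 0.00329). AT3G59340 had 217, 322 and 221 in Sp.KCl and 97.6, 121 and 108 in C.KCl (1.09 ± 0.17, adjusted p = 0.00102). The groups of these genes did not overlap.

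The list of TRAF-like proteins matched no gene, so the family was not counted as a whole, and 4 called genes known to encode such proteins, whose TRAF-like domain makes contacts between proteins, are described singly. AT5G26280 had signals of 1931, 2353 and 1911 in Sp.KCl and 745, 788 and 1105 in C.KCl (1.23 ± 0.19, adjusted p = 0.000785). AT5G26260, which lies close to it with 2 genes between, had 3846, 3381 and 3138 in Sp.KCl and 2478, 1705 and 1998 in C.KCl (0.75 ± 0.098, adjusted p = 8.61e-05). AT3G20370 had 7251, 7896 and 7042 in Sp.KCl and 5108, 4961 and 5023 in C.KCl (0.55 ± 0.10, adjusted p = 0.00425). These 3 were higher in every Sp.KCl array, while AT4G01390 was lower, at 191, 212 and 117 in Sp.KCl and 583, 556 and 956 in C.KCl (-1.91 ± 0.24, adjusted p = 5.62e-05). The genes of this family share sequence, and the probe sets named here list 1 gene each.

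JAL33, a jacalin-related lectin, had 10580.4, 9627 and 9383 in Sp.KCl and 4366, 5219 and 5633 in C.KCl (0.96 ± 0.13, adjusted p = 9.49e-05), and its call was kept in every omission. NAI2, a protein needed to form ER bodies, the compartments of Brassicaceae roots that store defence-related glucosidases, had 5039, 5147 and 6069.9 in Sp.KCl and 4031, 4044 and 3644 in C.KCl (0.47 ± 0.094, adjusted p = 0.00973). Both were higher in all 3 Sp.KCl arrays. The call of NAI2 was lost without Sp.KCl replicate 3 or C.KCl replicate 3 (adjusted p from 0.0525 to 0.0615).

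Several of the higher genes lie near each other. Among the 67 called genes, 7 pairs had at most 4 genes between them, and both members of each pair moved in the same direction. Such pairs were not counted among all annotated genes, so the number is not read as a feature of the called genes. AT5G47980 and AT5G47950 are acyltransferases of the BAHD family in the cluster of genes that make the root triterpene thalianol, with 2 genes between them. AT5G47980 had 793, 1169.9 and 1037 in Sp.KCl and 554, 424 and 413 in C.KCl (1.08 ± 0.24, adjusted p = 0.0247), and AT5G47950 differed by 0.57 ± 0.13 (adjusted p = 0.0252). The adjacent AT5G38020, a methyltransferase of the SABATH family, and AT5G38030, a MATE efflux carrier, differed by 1.15 ± 0.23 (adjusted p = 0.0112) and 0.43 ± 0.10 (adjusted p = 0.038). AT5G38020 had 2752, 3426 and 2138 in Sp.KCl, against 1364, 910.4 and 1443 in C.KCl. The adjacent AT5G23840 and AT5G23830, which carry an MD-2-related lipid-recognition domain, differed by 0.86 ± 0.17 (adjusted p = 0.00865) and 0.55 ± 0.12 (adjusted p = 0.0193). AT1G66800, an NAD(P)-binding reductase-like protein, differed by 1.03 ± 0.19 (adjusted p = 0.00623), and SGA2, a histone chaperone with 4 genes between them, by 0.49 ± 0.11 (adjusted p = 0.029). The calls of these 8 genes were lost without one or more of Sp.KCl replicates 1, 2 and 3 or C.KCl replicates 1, 2 and 3 (adjusted p from 0.0523 to 0.215). Lower pairs, each with 3 genes between, were AT5G08360 (-0.88) with AT5G08390 (-0.66), and AT2G38600 with AT2G38640 (-0.45). The difference of AT2G38640 turned to 0.20 when scaled to the poly-A controls. The call of AT5G08360 was lost in 4 of the 6 omissions of 1 array. Those of AT5G08390 and AT2G38640 were lost in 5 each (adjusted p from 0.0514 to 0.256 over these genes).

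Some carriers of the NPF family, which move nitrate, chloride, peptides and hormones, were among the higher genes. The family was not counted as a whole. In the list of NPF and other nitrate transporters 1 of 12 matched members passed, and their median difference was 0.081. AT1G33440, also in that list, was lower without overlap and did not pass (-0.48 ± 0.22, adjusted p = 0.449). AT2G26690, NPF6.2, a low-affinity nitrate transporter, had signals of 469, 439.9 and 403 in Sp.KCl and 163, 233 and 217 in C.KCl (1.05 ± 0.22, adjusted p = 0.0132). AT3G45710, a member known for chloride efflux from roots, had 2452, 2573 and 2843 in Sp.KCl and 1865, 1572 and 1770.4 in C.KCl (0.59 ± 0.12, adjusted p = 0.0163). AT1G22550, of the same family, differed by 0.38 ± 0.087 (adjusted p = 0.0299), and AT5G02170, of an amino acid transporter family, by 0.68 ± 0.14 (adjusted p = 0.0149). All arrays of Sp.KCl were above those of C.KCl for the 4 genes. AT3G45700, a nearby NPF gene known for chloride loading into the xylem, had 488, 494 and 504 in Sp.KCl and 421, 423 and 330.0 in C.KCl (0.34 ± 0.14, adjusted p = 0.367) and did not pass. The calls of the 4 genes were lost without one or more of Sp.KCl replicates 1, 2 and 3 or C.KCl replicates 1 and 2 (adjusted p from 0.053 to 0.14).

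AT4G39675 had the largest positive difference of a named gene, with 75.2, 176 and 35.9 in Sp.KCl and 6.29, 3.92 and 29.6 in C.KCl (1.83 ± 0.45, adjusted p = 0.0479). Most of its C.KCl signals lie below the 16 added before log2, so the size of the difference depends on that value. The same holds for AT3G17640, a leucine-rich repeat protein (61.4, 60.2 and 47.6 in Sp.KCl, against 6.7, 11.2 and 12.2 in C.KCl; 1.48 ± 0.32, adjusted p = 0.022), for AT4G20790 (1.29 ± 0.28, adjusted p = 0.021) and for AT4G09940 (1.04 ± 0.25, adjusted p = 0.043). AT4G39675 did not pass with 64 in place of 16 (0.97), and AT4G09940 did not with 1 (2.24). AT1G72390, PHL, known for a role in flowering time, differed by 1.29 ± 0.32 (adjusted p = 0.0479), and gave 0.65 with 64 in place of 16 and did not pass. AT4G33550, a lipid transfer protein, had 759.7, 702 and 529 in Sp.KCl and 269, 183 and 438 in C.KCl (1.19 ± 0.23, adjusted p = 0.00717). AT3G07720, a kelch-repeat protein, differed by 0.93 ± 0.21 (adjusted p = 0.0252), and AT2G37130, a class III peroxidase, by 0.77 ± 0.15 (adjusted p = 0.00717). AT1G74470, a geranylgeranyl reductase that supplies the phytyl chain of chlorophyll and tocopherol, differed by 0.64 ± 0.14 (adjusted p = 0.0248). The calls of these 9 genes were lost without one or more of Sp.KCl replicates 1, 2 and 3 or C.KCl replicates 1, 2 and 3 (adjusted p from 0.0536 to 0.326).

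Among the lower genes AT4G01390 had the largest difference and the smallest p. AT2G28780 also kept its call in every omission, with 314, 344 and 354 in Sp.KCl and 1191, 890.2 and 1122 in C.KCl (-1.61 ± 0.23, adjusted p = 0.000265); scaled to the poly-A controls its difference was -0.94 and did not pass.

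The next 7 lower genes encode enzymes of different families, none of which was counted as a whole. AT1G80320 and AT1G52790 belong to the 2-oxoglutarate-dependent oxygenases, which hydroxylate small molecules. AT1G80320 had 155, 34.7 and 61.1 in Sp.KCl and 336, 177 and 406 in C.KCl (-1.81 ± 0.36, adjusted p = 0.00865), and AT1G52790 had 7.69, 3.48 and 20.2 in Sp.KCl and 55.5, 30.9 and 109.5 in C.KCl (-1.55 ± 0.35, adjusted p = 0.0267). The AAA-type ATPases AT3G28510 and AT1G43910 use ATP to remodel other proteins. AT3G28510 had 43.1, 32.2 and 51.6 in Sp.KCl and 188, 127 and 182 in C.KCl (-1.64 ± 0.32, adjusted p = 0.0084), and AT1G43910 differed by -0.78 ± 0.19 (adjusted p = 0.0446). AT1G49570, a class III peroxidase, had 103, 66.8 and 141 in Sp.KCl and 262, 174 and 285 in C.KCl (-1.12 ± 0.24, adjusted p = 0.0215). AT3G46650, a UDP-glycosyltransferase, differed by -1.11 ± 0.25 (adjusted p = 0.0271), and AT2G38600, an acid phosphatase of the haloacid dehalogenase type, by -1.07 ± 0.25 (adjusted p = 0.0357). The groups did not overlap for any of the 7. Each of the 6 single-array omissions ended the calls of AT1G43910, AT3G46650 and AT2G38600, and the calls of the other 4 ended without one or more of Sp.KCl replicates 1 and 2 or C.KCl replicates 1 and 3 (adjusted p from 0.0634 to 0.23 over the 7). The Sp.KCl signals of AT1G52790 and AT3G46650 average below the 16 added, so the size of their differences depends on it. With 64 added AT1G52790 gave -0.76 and AT3G46650 gave -0.53, and neither passed.

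The PP2C-type protein phosphatase AT4G32950 had 4618, 4137 and 3885 in Sp.KCl and 6790.4, 6737 and 6151 in C.KCl, a difference of -0.64 ± 0.12 (adjusted p = 0.00717) that turned to 0.029 when scaled to the poly-A controls. BAT1, an acyltransferase that acts on brassinosteroids, had 1941, 1724 and 2277 in Sp.KCl and 2897, 2918 and 3524 in C.KCl (-0.65 ± 0.13, adjusted p = 0.00717, turned to 0.015). AT5G41670, a 6-phosphogluconate dehydrogenase, which supplies NADPH for nitrite reduction in plastids, had 3004, 2762 and 2902 in Sp.KCl and 6006, 3960.3 and 4304 in C.KCl (-0.69 ± 0.14, adjusted p = 0.00865). AT1G64190, another enzyme of this step, had 5055 in Sp.KCl and 6219 in C.KCl and did not pass (-0.29 ± 0.10, adjusted p = 0.244). AT3G62040, a haloacid dehalogenase-like hydrolase, differed by -0.56 ± 0.11 (adjusted p = 0.00717), turned to 0.10, and AT1G01490, a metal-binding domain protein, by -0.57 ± 0.11 (adjusted p = 0.00639), turned to 0.094. AT5G64550 had 200.1, 242 and 182 in Sp.KCl and 481, 461 and 416 in C.KCl (-1.07 ± 0.21, adjusted p = 0.00717). The calls of the 6 that passed were lost without one or more of Sp.KCl replicate 2 or C.KCl replicates 1 and 3 (adjusted p from 0.0542 to 0.114).

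Other genes lower in Sp.KCl were AT5G22390, at 9.56, 31.6 and 20.7 in Sp.KCl and 104, 117 and 69.6 in C.KCl (-1.65 ± 0.39, adjusted p = 0.043), and AT1G30795, at 5.6, 1.41 and 2.38 in Sp.KCl and 27.6, 29.8 and 25.3 in C.KCl (-1.19 ± 0.26, adjusted p = 0.0207). All Sp.KCl signals of AT1G30795 lie below the 16 added before log2, and its difference was -2.92 with 1 and -0.45 with 64 in its place. With 1 in place of 16 AT5G22390 gave -2.29 and did not pass. Other higher genes included AT2G42300, a bHLH transcription factor (0.74 ± 0.17, adjusted p = 0.029), AT4G29270, an acid phosphatase of the haloacid dehalogenase type (0.73 ± 0.17, adjusted p = 0.0389), and AT1G04770, related to genes induced by sulfur deficiency (0.67 ± 0.15, adjusted p = 0.022). AT1G50580, a UDP-glycosyltransferase, differed by 0.56 ± 0.13 (adjusted p = 0.0389), and AT3G57020, a strictosidine synthase-like protein, by 0.52 ± 0.12 (adjusted p = 0.043). AT4G32470, a subunit of the mitochondrial ubiquinol-cytochrome c reductase, differed by 0.40 ± 0.095 (adjusted p = 0.039), and AT3G10260, a reticulon of the endoplasmic reticulum, by 0.38 ± 0.081 (adjusted p = 0.0186). Each of the 6 omissions ended the call of AT1G50580, and the calls of the other 8 ended without one or more of Sp.KCl replicates 1, 2 and 3 or C.KCl replicates 1, 2 and 3 (adjusted p from 0.054 to 0.284 over the 9).

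**Figure D2:**
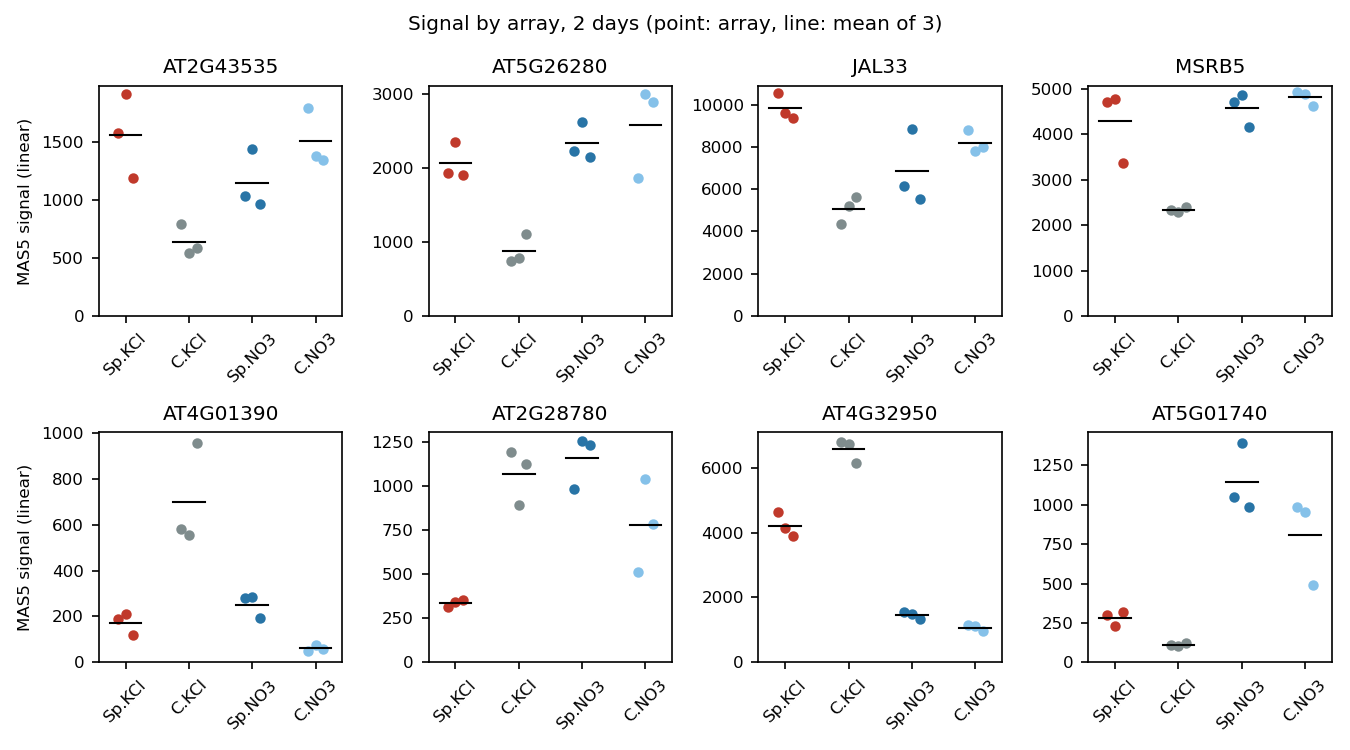
MAS5 signal on a linear scale for 8 genes on each array at 2 days, with the mean of 3 as a line. In the upper row C.KCl is the lowest of the 4 groups, and in AT2G28780 Sp.KCl is the lowest, at 314, 344 and 354.

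The levels on the nitrate side place these genes. Group means were taken on the log2 scale and turned back into signals, and their median was taken over the probe sets. Over the 79 higher probe sets, this median was 1536 in Sp.KCl, 848 in C.KCl, 1310.2 in Sp.NO3 and 1497 in C.NO3. Over the 59 lower ones it was 404 in Sp.KCl, 701 in C.KCl, 396 in Sp.NO3 and 387 in C.NO3. Comparisons of nitrate with chloride share the KCl arrays with the one above (they called 390 probe sets, 1.71%, on uniform plates and 116, 0.510%, on split plates), so the values stand side by side and are not a further result. The averages of single genes are arithmetic means of the signals. MSRB5 averaged 4295 ± 797 in Sp.KCl, 2336 ± 55.9 in C.KCl, 4579 ± 371 in Sp.NO3 and 4819 ± 161 in C.NO3 (SD, n = 3 each). AT5G26280 averaged 2065 ± 249.7 in Sp.KCl, 879 ± 197 in C.KCl, 2337 ± 251 in Sp.NO3 and 2584 ± 626 in C.NO3. For both, C.KCl was the one group apart. AT4G32950 and AT5G01740 differed from this. AT4G32950 averaged 4213 in Sp.KCl and 6559.6 in C.KCl, against 1464 in Sp.NO3 and 1073 in C.NO3, so Sp.KCl lay between uniform chloride and either nitrate group. AT5G01740 averaged 284 in Sp.KCl, 112 in C.KCl, 1142 in Sp.NO3 and 807 in C.NO3, also with Sp.KCl in between. In AT2G28780 and AT2G38600 Sp.KCl was the lowest group: AT2G28780 averaged 337 in Sp.KCl, 1068 in C.KCl, 1156 in Sp.NO3 and 777 in C.NO3.

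The plate difference was set against that on the nitrate side, Sp.NO3 minus C.NO3 at 2 days, which shares no array with it. Sp.NO3 and Sp.KCl are the sides of the same split plates, so their arrays may still share plants. The test took the groups as unpaired, and a pairing of these sides was not checked. On the nitrate side 1 probe set passed (0.00440%), and 1114 had an unadjusted p under 0.05. The test of the difference between the sides called 40 probe sets (0.176%), 18 higher and 22 lower. Among the 5 genes of smallest p, AT4G01390 fell on the chloride side and was higher on the nitrate side, at 281, 283 and 192 in Sp.NO3 and 48.3, 76.3 and 60.5 in C.NO3 (1.78 ± 0.24, adjusted p = 0.000501), so the sides differed by -3.69 ± 0.33 (adjusted p = 1.06e-07). The sides differed by 1.65 ± 0.24 (adjusted p = 0.000627) for AT2G43535, by 1.25 ± 0.18 (adjusted p = 0.000627) for JAL33, by -2.22 ± 0.33 (adjusted p = 0.000627) for AT2G28780 and by -1.08 ± 0.17 (adjusted p = 0.00174) for AT4G32950. These 5 calls were kept without any 1 of the 12 arrays. The count of 40 fell to 24 without C.KCl replicate 1, C.KCl replicate 2 or Sp.NO3 replicate 1, and to 23 without Sp.NO3 replicate 3. Scaled to the poly-A controls, the call of AT4G01390 was kept and those of the other 4 were lost. With the KCl groups exchanged, as the treatment characteristics have them, 12 probe sets passed, 3 of them among the 40, and none of the 5 genes did. AT4G01390 then gave 0.13 ± 0.33 (adjusted p = 0.968), AT2G43535 -0.86 ± 0.24 (adjusted p = 0.263), JAL33 -0.67 ± 0.18 (adjusted p = 0.242), AT2G28780 1.00 ± 0.33 (adjusted p = 0.391) and AT4G32950 0.20 ± 0.17 (adjusted p = 0.853). Over the called probe sets, 34 of the 79 higher and 17 of the 59 lower had the same sign on the nitrate side, where 48.5% of all probe sets were positive and 51.5% negative.

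**Figure D3:**
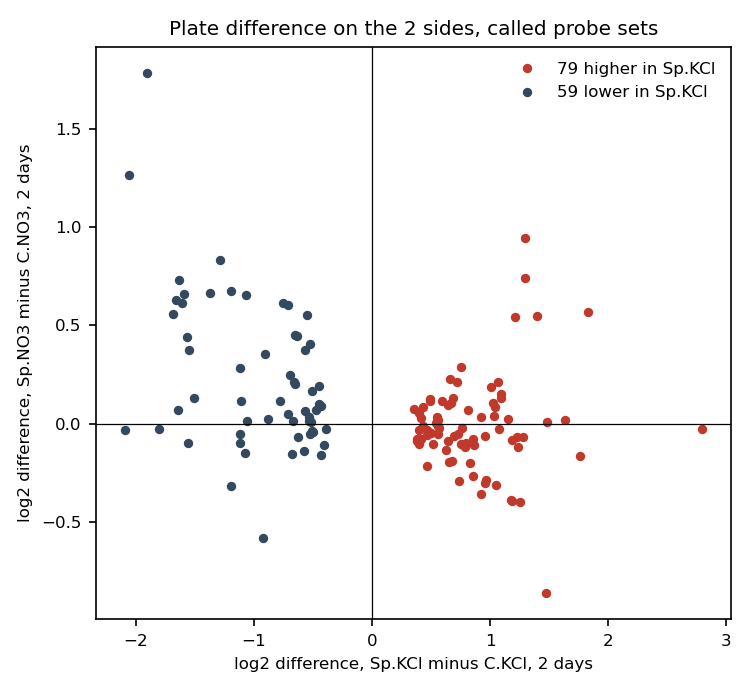
Log2 difference between split and uniform plates at 2 days for the 138 called probe sets, on the chloride side (x axis) and on the nitrate side (y axis). The nitrate-side differences run from -0.86 to 0.95 for the 79 higher probe sets and from -0.58 to 1.78 for the 59 lower ones.

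The chloride-side difference was followed over time with separate plants. At 2 hours 31 probe sets passed (0.136%) and at 8 hours 0 did (0.00%), with 465 at an unadjusted p under 0.05. Of the 14 higher and 14 lower genes named at 2 days, 0 passed at 2 hours or at 8 hours. Their differences ran from -0.24 to 0.20 at 2 hours and from -0.71 to 0.29 at 8 hours for the higher genes, and from -0.62 to 0.26 and from -0.52 to 0.36 for the lower ones. The difference at 2 days differed from that at 2 hours for 47 probe sets (0.207%) and from that at 8 hours for 2 (0.00879%). The count of 47 was 34 to 36 without Sp.KCl replicate 1 or C.KCl replicate 3 at 2 days or Sp.KCl replicate 1 at 2 hours, and 11 to 28 without any other of the 12 arrays. AT2G43535 had 2839.7, 3326 and 3167 in Sp.KCl and 2937, 3844 and 3870.0 in C.KCl at 2 hours, and its signals were lower in both groups at 2 days. Its difference, Sp.KCl minus C.KCl, changed by 1.44 ± 0.24 from 2 hours to 2 days (adjusted p = 0.00558). For MSRB5 the change in the difference was 0.86 ± 0.15 (adjusted p = 0.0113) and for AT1G01490 -1.03 ± 0.15 (adjusted p = 0.00181). These 3 calls were lost in a fit to the arrays compared alone. In rpl16, a plastid ribosomal protein gene, the difference changed by 2.17 ± 0.23 (adjusted p = 4.18e-06). Its signals at 2 hours were 1605, 1434 and 1592 in Sp.KCl and 4909, 5936 and 5088 in C.KCl. At 2 days its difference was 0.40 ± 0.16 (adjusted p = 0.346). In AT3G12030 the difference changed by -0.69 ± 0.14 (adjusted p = 0.0316) from 2 hours, and each of 8 single-array omissions among 12 ended that call (adjusted p 0.0503 to 0.0967). In AT4G01390 the difference changed from 8 hours by -1.89 ± 0.33 (adjusted p = 0.0442), and each of the 12 omissions ended that call (adjusted p 0.0574 to 0.233). Its signals were 1633, 1646 and 1321 in Sp.KCl and 1649, 1616 and 1395 in C.KCl at 8 hours. Over the called probe sets, 65 of 79 higher and 40 of 59 lower had the same sign at 8 hours, where 51.0% of all were positive and 49.0% negative, and 42 of 79 and 40 of 59 did at 2 hours, where 42.8% were positive and 57.2% negative.

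**Figure D4:**
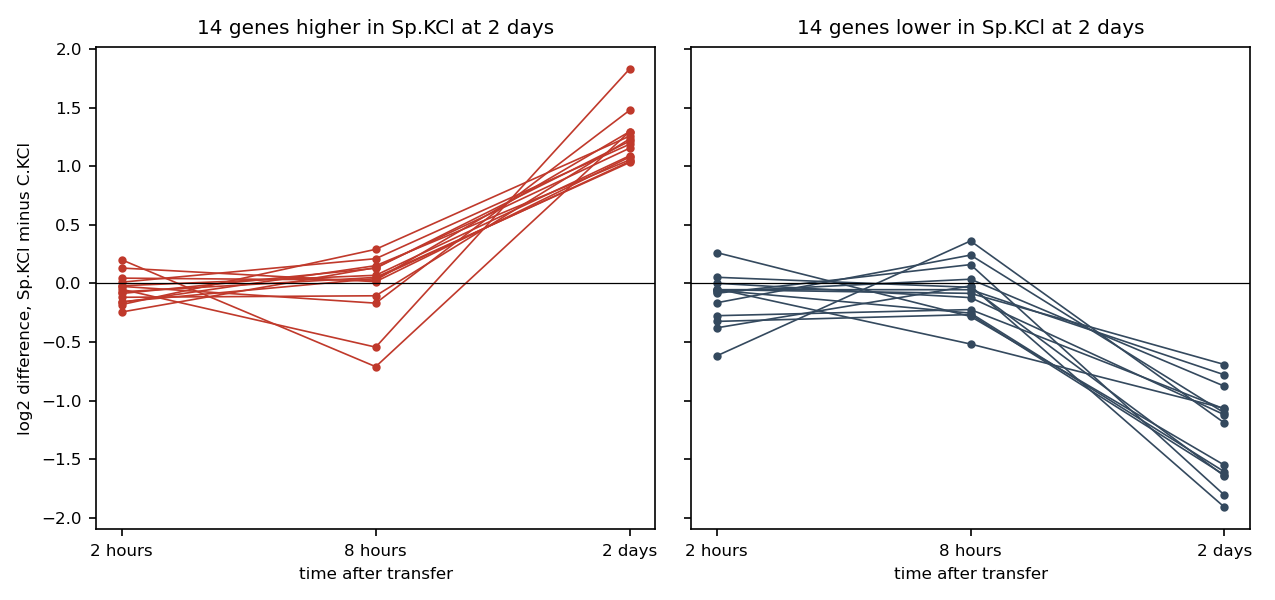
Log2 difference, Sp.KCl minus C.KCl, at the 3 times (x axis, in order) for the 14 higher and 14 lower genes named at 2 days, 1 line per gene. The higher genes lie at 1.03 to 1.83 and the lower ones at -0.69 to -1.91 at 2 days.

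Of 32 gene lists, 24 had a member that the annotation could match and 8 had none, among them ammonium assimilation, long-distance nitrogen signals, phosphate starvation, TRAF-like proteins and endodermis markers. The lists hold only genes whose RefSeq names or synonyms contain the words or symbols searched for, so they are not whole families. The called peroxidases AT2G37130 and AT1G49570, the called UDP-glycosyltransferases AT3G46650 and AT1G50580 and the called NPF genes AT3G45710 and AT1G22550 described above are in none of them. A member passed in 2 lists, where 0.347% of all probe sets were higher. In the list of NPF and other nitrate transporters 1 of the 12 matched members rose (AT2G26690), with a median difference of 0.081. NRT2.5, a high-affinity nitrate transporter of starved roots, had 39.3, 55.6 and 73.7 in Sp.KCl and 119, 143 and 97.7 in C.KCl, and did not pass (-0.93 ± 0.27, adjusted p = 0.136). Of the 13 matched glutathione transferases 1 rose (GSTU26), with a median of 0.30. In the other 22 lists 0 of the matched members passed. These include 24 cytochromes P450 (CYP718, 1.64 ± 0.47, adjusted p = 0.128), 43 UDP-glycosyltransferases (UGT72E1, 0.78 ± 0.21, adjusted p = 0.103), 47 cell wall genes (EXPA20, 0.62 ± 0.15, adjusted p = 0.0533), 20 of sugar transport (SWEET17, 0.39 ± 0.13, adjusted p = 0.199), 18 of auxin (YUC4, -0.90 ± 0.35, adjusted p = 0.317), 8 of cell division (HTB4, -0.18 ± 0.13, adjusted p = 0.69) and 9 peroxidases (AT5G64120, 1.11 ± 0.37, adjusted p = 0.227). The medians of these 7 lists lay between -0.15 and 0.11. The cytokinin response regulators RR16 (-0.47 ± 0.24, adjusted p = 0.507) and ARR15 (-0.24 ± 0.22, adjusted p = 0.763) did not pass either.

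Further genes outside these lists were looked up with earlier results of these data known. Some are known from nitrogen signalling. The glutaredoxins AT1G06830 and AT2G47880, which carry the shoot's message to supplied roots, averaged 52.5 ± 38.9 and 72.3 ± 25 in Sp.KCl and 72 ± 21.7 and 93.1 ± 23.1 in C.KCl (SD, n = 3 each), with differences of -0.50 ± 0.40 (adjusted p = 0.719) and -0.33 ± 0.29 (adjusted p = 0.751). The further glutaredoxin AT3G62930 differed by -0.45 ± 0.24 (adjusted p = 0.519). The transcriptional repressors of the nitrate response AT3G25790, AT1G68670 and AT1G25550 differed by -0.36 ± 0.18 (adjusted p = 0.472), 0.28 ± 0.13 (adjusted p = 0.441) and 0.21 ± 0.16 (adjusted p = 0.705). Others were looked up for the local response to nitrate. Of these, AT1G49500 had 696, 1004 and 492 in Sp.KCl and 282, 416 and 316 in C.KCl (1.04 ± 0.28, adjusted p = 0.104). OCT1, an organic cation and carnitine transporter, averaged 1337 in Sp.KCl and 2433 in C.KCl (-0.83 ± 0.30, adjusted p = 0.272). AT4G33720, a pathogenesis-related protein, averaged 1773 ± 1762 in Sp.KCl and 5751 ± 3449.8 in C.KCl (-2.20 ± 0.73, adjusted p = 0.222), and its arrays overlapped. Smaller differences were those of AT5G10210 (0.12 ± 0.25, adjusted p = 0.928), AT5G62720 (-0.066 ± 0.15, adjusted p = 0.933) and AT5G04120 (0.28 ± 0.49, adjusted p = 0.907). None of these passed. The same look-up also held AT5G41670 and AT3G45710, which passed, and AT1G64190 and AT3G45700, which did not, all described above. Scaled to the poly-A controls, the differences of AT1G06830, AT2G47880, AT3G62930, AT3G25790, AT5G62720, AT1G64190, HTB4, RR16 and ARR15 were positive. A p that misses the threshold does not show that their levels were alike.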

How the data were processed

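Roots of Arabidopsis were measured on 36 Affymetrix arrays, 3 biological repeats for each of 12 groups. The authors deposited linear array intensity values. Per the submitters' processing notes they come from MAS5, with no version stated. That each array was scaled to a mean of 500, after trimming 2% at either end, was read from the values. Further upstream steps: not given in the sources used here. Samples were grouped by title.

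Signals were turned into log2(signal + 16). In R 4.3.3, limma 3.58.1 fitted 12 group means to all 36 arrays and all 22746 probe sets (lmFit, contrasts.fit, eBayes with an intensity trend), with 24 residual and a median of 5.90 prior degrees of freedom. Tests were two-sided, with Benjamini-Hochberg adjustment over all probe sets and a threshold of 0.05. The same fit gave the differences between sides and between times. The number of arrays limits the precision. Where nothing says that repeats came from separate plants, p-values measure the spread between these samples.

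Genes were named from the platform annotation, in which 13513 probe sets list 1 gene, 503 list several and 8730 list none. RefSeq locus tags (TAIR10.1) matched 13436, and were used for names and neighbours only. By rule, the text names the 14 most raised and 14 most lowered genes past the threshold without overlap, up to 4 members past it and up to 2 others of each list, and the 5 of smallest p for each interaction. Other called genes were named after their values were seen. The members and the lists were chosen with earlier results of these data known. Same-numbered arrays of Sp.KCl and C.KCl correlated at 0.0097, -0.0043 and -0.022 in their deviations from the group means and were not treated as pairs. Alternatives covered the value added, filters, normalization, the arrays fitted, the trend, a replicate block, RNA quality, omissions and the study's stated test; use of the poly-A controls and the exchange of the KCl groups in the test between sides were added after seeing the data.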

Additional observations from a re-analysis of the deposited data

Results flagged for a closer look

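For 17 genes the difference between split and uniform plates at 2 days was not the same on the chloride and nitrate sides, by the test of the difference itself (limma, adjusted p from 1.06e-07 to 0.0466). The log2 difference on the chloride side minus that on the nitrate side was 2.34 for AT3G17640, 1.65 for AT2G43535, 1.35 for AT5G26280, 1.58 for AT4G33550, 1.25 for JAL33, 1.12 for AT5G23840, 0.93 for MSRB5, 0.86 for AT5G26260, 0.68 for AT1G27030, -0.94 for AT3G62040, -1.08 for AT4G32950, -1.10 for BAT1, -0.94 for AT5G41670, -1.72 for AT2G38600, -2.22 for AT2G28780, -2.36 for AT3G28510 and -3.69 for AT4G01390. With the KCl groups exchanged, only MSRB5 of these 17 passed (-0.78 ± 0.15 (adjusted p = 0.0443)).

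For 16 genes the chloride-side difference at 2 days was not the same as at 2 hours (adjusted p from 4.18e-06 to 0.0457). The log2 difference at 2 days minus that at 2 hours was 1.44 for AT2G43535, 1.35 for AT5G26280, 1.30 for AT5G01740, 1.11 for AT3G59340, 0.87 for JAL33, 0.86 for MSRB5, 0.66 for AT5G26260, 0.77 for AT5G23830, 2.17 for rpl16, 0.59 for AT1G22550, 0.53 for AT3G10260, -0.69 for AT3G12030, -0.69 for AT3G62040, -1.03 for AT1G01490, -1.55 for AT2G28780 and -1.53 for AT4G01390. Against 8 hours, the value was -1.89 for AT4G01390 (adjusted p = 0.0442). In a fit to the arrays compared alone, the 2-hour calls of AT2G43535, MSRB5, AT1G01490 and AT3G12030 were lost and that of rpl16 was kept. At 2 hours the 3′ over 5′ index was 0.384 ± 0.128 in Sp.KCl and 0.638 ± 0.122 in C.KCl (SD, n = 3 each). The poly-A controls ran from 8.47 to 8.91 in Sp.KCl and from 7.92 to 9.48 in C.KCl at that time. The part of these values in the calls was not tested.

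The poly-A control probe sets, which no comparison of genes uses, differed by -0.67 in mean log2 signal between Sp.KCl and C.KCl at 2 days, and the 3 and 3 arrays did not overlap.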

How the results depend on the processing

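The 138 calls of the main comparison (79 higher, 59 lower) became 143 and 136 with 1 and 64 in place of 16 added, 148 and 132 with the dimmest 30% and 50% of probe sets left out, 113 with quantile normalization, 100 without the trend (39 lower), 96 with the 3′ over 5′ index (39 lower), and 182 by the study's stated test with Benjamini-Hochberg values in place of q. They became 30 with only the arrays compared (16 higher, 14 lower), 55 with the poly-A level as a covariate (32 higher, 23 lower) and 1513 scaled to the poly-A controls (1509 higher, 4 lower). Exchanging the KCl groups leaves 138 with every sign turned. The replicate block gave 358 (208 higher, 150 lower), with the 138 among them. It gave 138, 178 and 20 for the differences between sides, from 2 hours and from 8 hours. The numbers do not pair the Sp.KCl and C.KCl arrays at 2 days, and those of Sp.KCl and Sp.NO3 were not checked. Omitting 1 array gave 49 to 257 calls (31 to 120 higher, 16 to 137 lower), 23 to 47 of 40 between sides, 11 to 36 of 47 from 2 hours and 0 to 3 of 2 from 8 hours. The 40 between sides became 1 scaled to the poly-A controls and 12 with the KCl groups exchanged, where AT4G01390 gave 0.13, AT2G43535 -0.86, JAL33 -0.67, AT2G28780 1.00 and AT4G32950 0.20. The 47 from 2 hours became 1 with only the arrays compared, 17 without the trend, 27 with the index and 23 with the poly-A covariate. The 2 from 8 hours became 1 with 64 added, with the 50% filter and without the trend, and 0 with 1 added, quantile normalization, only the arrays compared, the index and either use of the poly-A controls. Single genes changed sign as follows. Scaled to the poly-A controls, the difference at 2 days was 0.59 for LBD16, 0.60 for GUT2, 0.54 for SWEET11, 0.57 for Hsp70-2, 0.55 for WRKY6, 0.56 for AQI, 0.52 for CCR2, 0.36 for BBM, 0.52 for AT3G12030, 0.40 for AUR3, 0.49 for HTB4, 0.42 for PDC2, 0.27 for ARR15, 0.34 for LHW, 0.29 for ChiC, 0.27 for AT3G50910, 0.23 for AT3G62360, 0.22 for AT5G45350, 0.21 for AT5G13890, 0.20 for AT2G38640, 0.13 for SWEET1, 0.0084 for RR16, 0.079 for AT1G33440, 0.095 for AT2G43250, 0.13 for AT1G18980, 0.10 for AT3G62040, 0.094 for AT1G01490, 0.029 for AT4G32950, 0.015 for BAT1, 0.030 for AT1G06830, 0.21 for AT2G47880, 0.13 for AT3G62930, 0.27 for AT3G25790, 0.37 for AT1G64190 and 0.58 for AT5G62720; the change from 2 hours was 0.12 for AT3G12030. With the poly-A covariate it was -0.11 for EXPA7, 0.019 for GUT2, 0.0041 for SWEET11 and 0.10 for CCR2. With quantile normalization it was -0.0053 for EXPA7, 0.027 for LBD16, 0.0013 for GUT2 and 0.0033 for SWEET11. With the index it was -0.047 for EXPA7, -0.032 for EXPA18 and 0.020 for LBD16. Omitting 1 array gave -0.068 to 0.15 for EXPA7, -0.12 to 0.10 for EXPA18, -0.22 to 0.26 for LBD16, -0.12 to 0.020 for GUT2, -0.31 to 0.30 for SWEET11, -0.21 to 0.058 for Hsp70-2, -0.22 to 0.061 for CCR2, -0.33 to 0.10 for BBM, -0.30 to 0.020 for AUR3 and -0.025 to 0.23 for AT5G10210. The cause of these changes was not tested. Of the described genes that passed the test at 2 days, 11 changed sign under scaling to the poly-A controls and 0 under the other settings run, apart from the exchange of the KCl groups, which turns every sign.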
